A study of Mus musculus with 16 samples.

Results

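The genes described here are 34 mouse genes of glycolysis and of the response to low oxygen, chosen by symbol from a table of 52636 gene IDs. They are the glucose transporters Slc2a1 and Slc2a3, the enzymes from hexokinase to pyruvate kinase, genes that handle pyruvate and lactate, and a set of genes known as targets or regulators of the hypoxia-inducible factor HIF. The symbols matched 35 gene IDs because Aldoa names 2 of them. Of these, 33 had enough reads to be tested, and the other two, Ankrd37 with 2 to 12 reads per library and the second Aldoa ID (ENSMUSG00000114515) with 0 to 3, were not.

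Glycolysis splits glucose into pyruvate, and cells that send little pyruvate into mitochondria reduce it to lactate and export it. HIF is a pair of proteins, and its alpha subunit is destroyed in oxygen after prolyl hydroxylases mark it, so that the amount of Hif1a mRNA says little about the activity of the factor. When the protein is stable it binds short ACGTG or GCGTG sequences and raises transcripts of glucose transporters, nearly all glycolytic enzymes, Pdk1, the lactate exporter Slc16a3 and Vegfa. Mouse pluripotent cells are known for a high glycolytic rate, and the kinase ERK is known to act on glycolytic genes in several cell types.

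The cells were RSCs, a pluripotent cell type made from targeted mouse embryonic stem cells, of the line CRAFR26. They carry a c-RAF kinase construct that 4-hydroxytamoxifen switches on, which activates ERK, and the study asked which transcripts respond to ERK and which return when ERK is blocked. Routine medium held 2 µM IWP2, 1 µM of the MEK inhibitor PD0325901 and 1000 U/ml LIF, and for 48 h before each experiment 250 nM of the FGF receptor inhibitor PD173074 took the place of the MEK inhibitor, in the controls too. There were 4 groups of 4 libraries, 2 from clone 4 and 2 from clone 8.

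The 0h group had the FGF receptor inhibitor alone. The 2h and 4h groups had 2 h and 4 h of tamoxifen after it, at 250 nM in the protocol. The rev group had 4 h of tamoxifen and then a MEK inhibitor for 2 h. The labels give neither the dose of that inhibitor nor whether tamoxifen was still present, and no group had 6 h of tamoxifen alone, so that time and MEK inhibition cannot be told apart in rev. Among these libraries none had tamoxifen without the construct. Each clone is 1 cell line, and nothing says that its 2 libraries in a group came from separate cultures, so the p-values may measure only technical spread between libraries. Libraries are named by clone and number (clone4_1, clone4_2, clone8_1, clone8_2), and lists of 4 values follow that order.

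Total counts per library ran from 4313599 to 10444126, and 9 features, each above 1% of some library, held 47.1% to 79.7% of them. A floor of 3 counts equals 0.21 to 0.908 CPM (counts-per-million). Levels are CPM scaled by TMM factors, which ran from 0.899 to 1.40 in 15 libraries and stood at 0.537 in rev clone8_1. That library, 1 of the 2 behind every clone 8 value at rev, also had the highest share of counts in the large features (79.7%) and the highest mitochondrial share of the rest (2.91%). Without it 6 members instead of 7 were called at rev against 0h, 7 as before from 4h to rev, and 6 instead of 8 for the clone difference from 4h to rev, the lost calls being those of Pfkl, Slc2a1 and Pgk1 (edgeR adjusted p = 0.0574, 0.0759 and 0.0759). Of 10 known ERK response genes, 9 were higher at 2h and at 4h than at 0h and 8 were lower at rev than at 4h (edgeR, adjusted p under 0.05). General pluripotency markers (Pou5f1, Sox2, Sall4 and Lin28a) summed to 596 to 748 CPM in every library, while primitive endoderm markers summed to 3.06 to 7.18 and mesendoderm markers to 1.17 to 4.54 CPM. The clone 4 libraries at 4h stood apart in other lists: naive pluripotency markers summed to 853 and 1079 CPM there and to at least 1294 in every other library, neural markers to 65.9 and 58.9 against at most 49.6, and trophoblast markers to 23.9 and 22.1 against at most 15.7. The part of this in the 4h results below was not tested. Such sums follow the most abundant genes of a list and can hide genes that moved the other way. Over both clones at 4h against 0h, log2 changes ran from -1.12 to 1.06 in naive markers and from -0.751 to 2.37 in neural markers. In trophoblast markers they ran from 0.443 to 1.24. In a principal component analysis the clones separated on the first component (51% of variance), and on the third (8.57%) all 0h and 4h libraries lay on one side and all 2h and rev libraries on the other, in both clones. The part of that component in the changes below was not tested.

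Genes were called where edgeR's quasi-likelihood test, with group and clone in the model and Benjamini-Hochberg adjustment over 12742 genes, gave an adjusted p under 0.05. At 2h against 0h, 2 members rose and 7 fell, 27.3% of those tested where 17% of all genes were called (9.49% higher and 7.48% lower). At 4h against 0h, 1 rose and 8 fell, again 27.3%, against a background of 12.9% (7.35% higher and 5.56% lower). From 2h to 4h, 3 rose and 4 fell (21.2% against 12.1%, of which 5.78% higher and 6.36% lower), and from 4h to rev 3 rose and 4 fell (21.2% against 9.61%, of which 4.5% higher and 5.1% lower). At rev against 0h, 1 rose and 6 fell, against a background of 10.5% (5.51% higher and 4.94% lower). Between rev and 2h no member was called by edgeR or by DESeq2, where edgeR called 1.78% of all genes, and 3 members had an unadjusted p under 0.05, 1 of them higher and 2 lower at rev. By role, at 2h 3 of the 10 tested genes of upper glycolysis fell, as did 2 of 6 of lower glycolysis and 1 of 5 of lactate and pyruvate, and of the 10 tested hypoxia response genes 2 rose and 1 fell. The members were called lower more often than higher, and the median log2 change over the 33 members was -0.19 at 2h, -0.19 at 4h and -0.31 at rev against 0h, where the median over all genes was 0.00, -0.01 and 0.00. In all, 17 members were called in at least 1 of the 6 comparisons, a count without a background because that share of all genes was not computed. The other 16 were Gpi1, Pfkm, Pfkfb3, Aldoa, Aldoc, Gapdh, Pgk1, Pgam1, Ldha, Ldhb, Pdk1, Slc16a1, P4ha2, Egln1, Egln3 and Higd1a. The comparisons share groups, so their counts are not independent. In the order in which they were given, the first 5 counts became 2, 3, 0, 3 and 4 relative to library totals and 2, 3, 0, 1 and 1 without the clone in the model. The background moved too: 3.5%, 3.99%, 3.02%, 4.16% and 3.52% of all genes were called relative to library totals. Without the clone it was 5.94%, 4.29%, 2.09%, 1.97% and 2.14%. Leaving out 1 library gave 5 at 4h against 0h (without 4h clone4_1), 1 from 2h to 4h (without 2h clone4_2, 4h clone4_1 or 4h clone4_2), 3 from 4h to rev (without 4h clone4_1), and at rev against 0h from 3 (without 0h clone4_1 or rev clone4_2) to 11 (without 0h clone4_2).

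**Figure D1:**
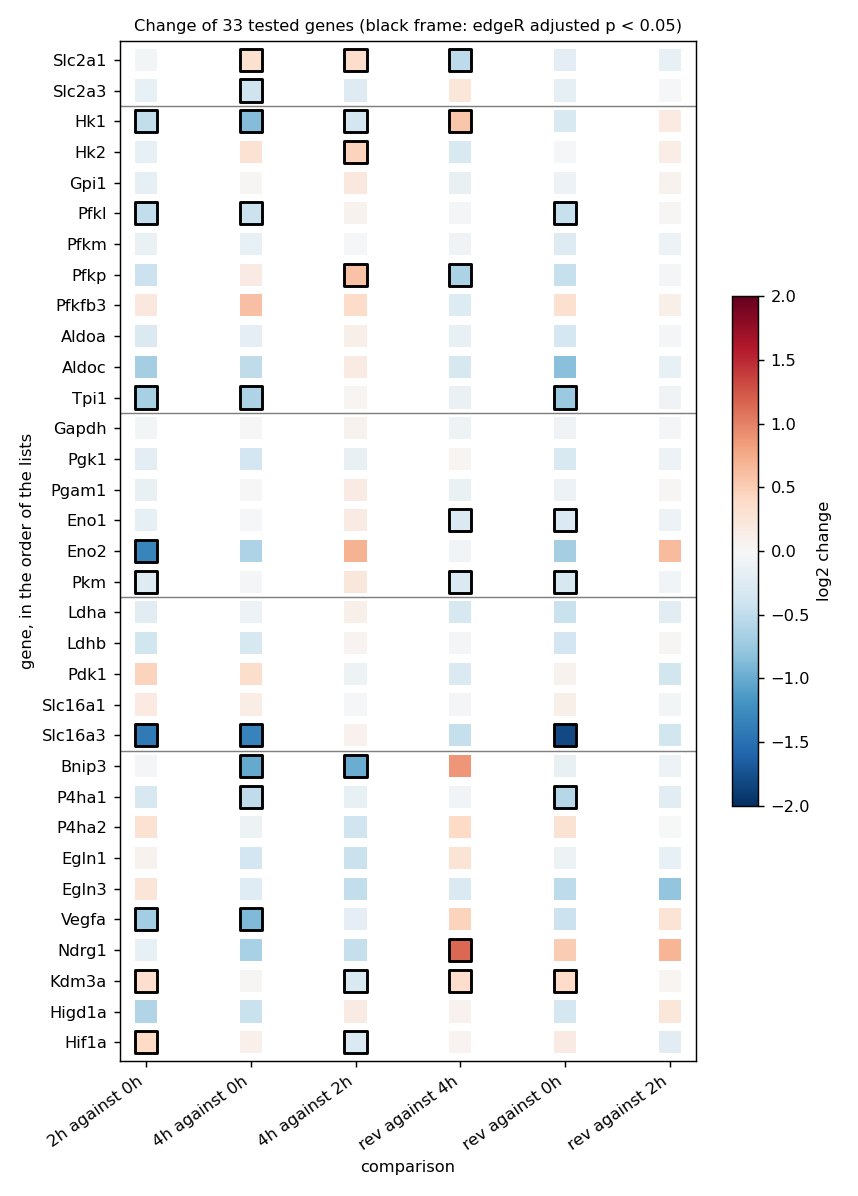
Log2 change of the 33 tested genes (rows, in the order transporters, upper glycolysis, lower glycolysis, lactate and pyruvate, hypoxia response) in the 6 comparisons between groups (columns), with colour for size and direction and a black frame for an edgeR adjusted p under 0.05. Slc16a3 shows the deepest falls, at 2h, 4h and rev against 0h, and the column of rev against 2h has no frame.

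Promoters of 4 genes are shown first because their transcripts carry the main patterns: Slc16a3 and Hk1 fell in both clones, and Pfkp and Pdk1 moved differently in the clones. Each is the 250 bases before the RefSeq start (GRCm38.p6) nearest the 5′ end of the gene, written 5′ to 3′ on the strand of the gene, with ACGTG or GCGTG on either strand in capitals (a match on the other strand shows as its reverse complement). The first also lies within the E-box CACGTG, and the other within GCGTGGGCG, the motif of the EGR factors. The windows are chr11:120948817-120949066 (plus strand) for Slc16a3, chr10:62379909-62380158 (minus) for Hk1, chr13:6648772-6649021 (minus) for Pfkp and chr2:71872974-71873223 (plus) for Pdk1.
Slc16a3: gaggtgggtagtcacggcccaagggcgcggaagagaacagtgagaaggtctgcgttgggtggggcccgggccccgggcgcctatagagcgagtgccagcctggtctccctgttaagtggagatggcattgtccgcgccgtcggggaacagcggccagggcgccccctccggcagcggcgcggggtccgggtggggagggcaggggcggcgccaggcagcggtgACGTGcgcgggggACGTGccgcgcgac
Hk1: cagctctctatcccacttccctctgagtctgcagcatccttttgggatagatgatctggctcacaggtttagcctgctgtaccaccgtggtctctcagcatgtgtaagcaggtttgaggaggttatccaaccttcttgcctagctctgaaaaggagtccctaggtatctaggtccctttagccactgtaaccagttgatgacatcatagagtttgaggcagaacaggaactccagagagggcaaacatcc
Pfkp: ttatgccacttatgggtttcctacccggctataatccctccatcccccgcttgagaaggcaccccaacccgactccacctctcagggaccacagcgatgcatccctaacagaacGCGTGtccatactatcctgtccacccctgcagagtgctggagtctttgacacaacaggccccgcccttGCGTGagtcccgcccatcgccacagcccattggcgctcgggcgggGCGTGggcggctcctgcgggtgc
Pdk1: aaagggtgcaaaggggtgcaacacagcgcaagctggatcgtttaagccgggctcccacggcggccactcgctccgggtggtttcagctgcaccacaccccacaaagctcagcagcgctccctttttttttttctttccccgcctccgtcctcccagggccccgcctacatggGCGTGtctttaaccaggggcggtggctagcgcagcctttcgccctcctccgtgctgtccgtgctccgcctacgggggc

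The Slc16a3 window held 2 matches, that of Pfkp 3 and that of Pdk1 1, and the Hk1 window shown held none. RefSeq windows were matched for 32 of the 34 symbols. At least 1 match lay in 25 of these (78.1%), in 38.6% of all 32851 windows and in 56.7% of the 12168 windows of tested genes. The members were counted with 1 chosen window per gene and the backgrounds with every window of a gene, so these shares are not like measures. The other windows without a match were those of Gpi1, Aldoa, Tpi1, Eno2, Pkm and Vegfa. RefSeq has more than 1 start window for 11 members, and Hk1, Aldoa, Pkm and Vegfa had a match in another of their windows, so that 29 of the 32 had one in some window. A match is a run of letters and not a measured binding site. Among the members called lower at 2h, Tpi1 and Eno2 had no match in any window, Hk1, Pkm and Vegfa had one only outside the window used, and Pfkl and Slc16a3 had 1 and 2 within it.

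Slc2a1 encodes the broadly expressed glucose transporter GLUT1. Its levels were 83.1, 86.2, 62.4 and 71.8 CPM at 0h, 95.3, 82.5, 62.1 and 57.1 at 2h, 127, 116, 73.6 and 70.3 at 4h, and 72.7, 71.3, 62.7 and 57.2 at rev. The 2 clone 4 libraries at 4h, which stood apart in the marker sums, were the highest of the 16, while in clone 8 the 4h libraries lay close to the 0h range, and the groups overlapped. Slc2a1 rose by 0.32 ± 0.10 (log2, SE) at 4h against 0h (edgeR adjusted p = 0.0365) and by 0.37 ± 0.10 from 2h to 4h (0.0184), and fell by 0.53 ± 0.10 from 4h to rev (0.00196). It was the one member called higher at 4h against 0h and lower at rev against 4h, and the share of all genes with both calls was not computed. Slc2a3, which encodes the high-affinity transporter GLUT3, had the higher level per kb of the pair (82.1 ± 17.8 CPM per kb at 0h, SD, n = 4, against 21.6 ± 3.12 for Slc2a1). Slc2a3 fell by 0.42 ± 0.10 at 4h against 0h (edgeR adjusted p = 0.0105), from a range of 425 to 709 CPM to 355 to 541 CPM, ranges that overlapped. The 4h call of Slc2a1 against 0h was lost without 0h clone4_1, 0h clone4_2, 0h clone8_1, 4h clone4_1 or 4h clone4_2 (adjusted p 0.0841 to 0.15) and in the model with library number as a block (0.0592), and its 2h to 4h call without 2h clone4_2, 2h clone8_2, 4h clone4_1 or 4h clone4_2 (0.0546 to 0.0865).

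Hexokinases trap glucose in the cell as glucose 6-phosphate, and Hk1 and Hk2 encode the 2 forms that bind mitochondria. Hk1 levels were 46.7, 52.0, 36.2 and 38.9 CPM at 0h, 41.1, 38.4, 24.0 and 22.7 at 2h, 25.1, 24.1, 21.9 and 22.5 at 4h, and 43.7, 40.9, 28.2 and 27.6 at rev. Every 4h library was below every 0h library and below every rev library. Hk1 fell by 0.50 ± 0.10 at 2h (edgeR adjusted p = 0.0031) and by 0.87 ± 0.11 at 4h against 0h (3.03e-05), and rose by 0.55 ± 0.11 from 4h to rev (0.00323). No other member was called lower at 4h against 0h and higher at rev against 4h, and the share of all genes with both calls was not computed. Hk2 took the other direction from 2h to 4h, where it rose by 0.47 ± 0.11 (edgeR adjusted p = 0.00998), from 102 to 117 CPM to 121 to 204 CPM without overlap, and its change at 4h against 0h was not called. In clone 4 the rise was 0.74 (edgeR adjusted p = 5.87e-06) and in clone 8 0.19 (0.333), a difference that was not tested for these times, and relative to library totals the call was lost (0.606). Hk1 also fell by 0.37 ± 0.11 from 2h to 4h (adjusted p = 0.0299), a call lost without any 1 of the 4 clone 4 libraries at 2h and 4h (0.0851 to 0.127) and with library number as a block (0.0526).

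Phosphofructokinase, which has 3 subunit genes, commits sugar to glycolysis. Pfkp, the platelet-type subunit, had 180, 133, 181 and 189 CPM at 0h, 190, 158, 99.7 and 94.9 at 2h, 252, 236, 169 and 148 at 4h, and 161, 164, 94.2 and 102 at rev. In clone 8 it fell to about its rev level at 2h and was higher again at 4h, and in clone 4 the 4h libraries stood above all others. Over both clones Pfkp rose by 0.59 ± 0.16 from 2h to 4h (edgeR adjusted p = 0.0229) and fell by 0.63 ± 0.16 from 4h to rev (0.0183). The liver-type subunit Pfkl fell by 0.50 ± 0.12 at 2h (edgeR adjusted p = 0.00992), by 0.43 ± 0.13 at 4h (0.0295) and by 0.47 ± 0.13 at rev (0.024), each against 0h, from 35.3 to 65.2 CPM at 0h to 31.4 to 42.5 at 2h, with overlapping ranges. The muscle-type subunit Pfkm, 8.88 to 22.8 CPM over 0h and 4h, was called in no comparison between groups. Neither was Pfkfb3, which makes the activator fructose 2,6-bisphosphate. The Pfkp call from 2h to 4h was lost without 2h clone4_2, 2h clone8_1, 2h clone8_2, 4h clone4_1 or 4h clone4_2 (adjusted p 0.0541 to 0.0693), that from 4h to rev without 4h clone4_1 (0.0546), and the Pfkl calls at 4h and at rev each without any 1 of 5 libraries, among them 0h clone4_1 and 0h clone8_2 (0.0505 to 0.112).

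Triosephosphate isomerase, Tpi1, interconverts the triose phosphates made by aldolase. Its levels were 58.9, 41.4, 109 and 133 CPM at 0h, 45.4, 35.8, 59.1 and 63.6 at 2h, 27.9, 39.4, 71.5 and 83.2 at 4h, and 38.1, 29.8, 63.3 and 65.6 at rev. The clones did not overlap within any group, and within each clone every library at 4h and rev lay below every 0h library. Tpi1 fell by 0.66 ± 0.15 at 2h (edgeR adjusted p = 0.00503), by 0.62 ± 0.15 at 4h (0.00943) and by 0.75 ± 0.15 at rev (0.00395) against 0h. Aldoa, Aldoc and Gpi1, the aldolases and the isomerase ahead of them, were called in none of the 6 comparisons. Aldoa had the highest level per kb of all members at 0h, 159 ± 38.2 CPM per kb (SD, n = 4).

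Of the 6 genes from glyceraldehyde phosphate dehydrogenase to pyruvate kinase, none was called at 4h against 0h by edgeR or by DESeq2, and 1 had an unadjusted p under 0.05. At 4h against 0h edgeR called 12.9% of all genes, and 6 genes are too few to tell a count of 0 from that share. Gapdh, often used as a reference gene, had 346, 297, 560 and 556 CPM at 0h, 352, 316, 502 and 499 at 2h, 318, 347, 497 and 606 at 4h, and 327, 284, 538 and 498 at rev. Its largest fitted change in the 6 comparisons was -0.11 on the log2 scale, and the clone, not the group, separated its libraries. Near copies in 90 other genes share sequence with Gapdh and held 5.18% as many counts as Gapdh itself, so some of its reads may have been counted elsewhere. Eno2, the neuron-type enolase, was far lower: 4.40, 1.97, 5.08 and 4.17 CPM at 0h, 1.30, 1.66, 1.90 and 1.40 at 2h, 3.60, 3.30, 1.41 and 2.45 at 4h, and 2.26, 2.72, 2.12 and 2.56 at rev. Every 2h library was below every 0h library, and Eno2 fell by 1.32 ± 0.30 at 2h (edgeR adjusted p = 0.00536), from counts that were low in all groups. The main enolase Eno1 and the pyruvate kinase Pkm both fell at rev: Eno1 by 0.29 ± 0.08 against 4h and by 0.31 ± 0.08 against 0h (edgeR adjusted p = 0.0237 and 0.0167), Pkm by 0.30 ± 0.08 and 0.33 ± 0.08 (0.0298 and 0.017).

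Pkm also fell by 0.26 ± 0.08 at 2h (edgeR adjusted p = 0.0385), from 476 to 655 CPM to 397 to 539 CPM with overlap. These are among the smallest called changes, and each call of Pkm and Eno1 was lost when some single library was left out: at 2h Pkm without 0h clone4_1, 0h clone8_2, 2h clone4_2, 2h clone8_1 or 2h clone8_2 (adjusted p 0.0634 to 0.129), at rev against 0h both without 0h clone4_1 or rev clone4_2 (0.0508 to 0.0745), and at rev against 4h Pkm without any 1 of the 4 clone 4 libraries and Eno1 without 4h clone4_1, 4h clone4_2 or rev clone4_2 (0.0511 to 0.135). Part of the exon sequence of Pkm, 15.3%, is shared with the annotated gene Gm49759 on the same strand, and near copies of Eno1 in 3 genes held 8.74% as many counts as Eno1.

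Slc16a3 encodes MCT4, the monocarboxylate transporter that exports lactate from glycolytic cells. It had 14.4, 12.1, 24.8 and 30.6 CPM at 0h, 8.95, 4.84, 8.28 and 7.99 at 2h, 8.53, 6.35, 7.84 and 9.04 at 4h, and 4.97, 4.66, 6.06 and 7.04 at rev. Every 0h library was above every library of the other groups, and the rev libraries did not lie higher than those at 4h. Slc16a3 fell by 1.42 ± 0.19 at 2h (edgeR adjusted p = 6.06e-05), by 1.33 ± 0.19 at 4h (1.71e-04) and by 1.80 ± 0.20 at rev (2.63e-05), each against 0h, and these are the deepest called changes among the members. These 3 calls were kept in each of the 26 other settings tried, which include leaving out each library and fitting each clone alone. Slc16a1, which encodes the related transporter MCT1, was called in none of the 6 comparisons and ranged from 52.0 to 87.1 CPM.

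Ldha and Ldhb encode the subunits of lactate dehydrogenase, and Pdk1 the kinase that turns off pyruvate dehydrogenase. None of the 3 was called in a comparison over both clones. Pdk1 had 5.19, 3.94, 16.2 and 16.4 CPM at 0h, 13.9, 11.6, 15.5 and 13.4 at 2h, 3.47, 7.11, 19.8 and 24.5 at 4h, and 9.83, 9.12, 10.3 and 9.85 at rev. The clones were far apart at 0h and 4h and close together at 2h and rev. Ldha had 107, 58.1, 220 and 252 CPM at 0h, 100, 78.6, 162 and 167 at 2h, 72.4, 103, 195 and 199 at 4h, and 85.0, 68.0, 124 and 156 at rev, with every clone 8 library above every clone 4 library.

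Vegfa encodes the growth factor of blood vessels and is a classic HIF target. It had 52.3, 35.6, 32.8 and 31.0 CPM at 0h, 21.9, 20.9, 24.5 and 25.1 at 2h, 22.7, 28.7, 17.6 and 14.2 at 4h, and 20.4, 18.3, 43.3 and 35.1 at rev. All 2h and 4h libraries were below all 0h libraries, and at rev the clone 8 libraries were high and the clone 4 libraries low. Vegfa fell by 0.70 ± 0.23 at 2h (edgeR adjusted p = 0.041) and by 0.89 ± 0.24 at 4h (0.0182) against 0h. The 2h call was lost without 0h clone4_1, 0h clone4_2 or any 1 of the 4 libraries at 2h (adjusted p 0.0616 to 0.172) and with library number as a block (0.066), and the 4h call without 0h clone4_1 or 4h clone8_2 (0.0564 and 0.0905).

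Bnip3 encodes a mitochondrial protein of mitophagy and was low throughout: 2.40, 2.43, 2.18 and 3.59 CPM at 0h, 2.98, 3.32, 2.20 and 2.10 at 2h, 1.20, 1.02, 1.31 and 1.53 at 4h, and 1.92, 2.43, 2.12 and 2.94 at rev. Every 4h library was below every library of the other groups. Bnip3 fell by 1.03 ± 0.28 at 4h against 0h (edgeR adjusted p = 0.0214) and by 0.99 ± 0.27 from 2h to 4h (0.0239). An annotated gene on the opposite strand, Gm45507, shares 22.3% of its exon sequence, and whether counting used strand is not given in the sources used here. The first call was lost without 0h clone8_2, 4h clone4_1 or 4h clone4_2 (adjusted p 0.0538 to 0.0849) and the second without any 1 of the 4 clone 4 libraries at 2h and 4h (0.0575 to 0.0808).

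P4ha1 and P4ha2 encode alpha subunits of the prolyl hydroxylase that modifies collagen. P4ha1 had 23.6, 24.7, 28.4 and 27.7 CPM at 0h, 22.3, 19.1, 20.4 and 21.1 at 2h, 13.9, 15, 20.9 and 24.2 at 4h, and 19.1, 15.4, 15.4 and 19.2 at rev. No rev library reached the lowest 0h library, and P4ha1 fell against 0h by 0.57 ± 0.13 at rev (edgeR adjusted p = 0.00847) and by 0.50 ± 0.13 at 4h (0.0141). The call at 4h was lost without 4h clone4_1 (adjusted p = 0.0663). Together with Pfkl, Tpi1 and Slc16a3, P4ha1 was one of 4 members called lower than 0h both at 4h and at rev. Both comparisons use the same 0h libraries, so they are not independent, and the share of all genes called lower in both was not computed.

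Ndrg1, a stress-responsive gene that HIF and other factors raise, had 6.19, 7.58, 9.03 and 6.90 CPM at 0h, 7.78, 9.81, 4.71 and 5.89 at 2h, 4.27, 5.59, 4.42 and 5.36 at 4h, and 15.2, 12.9, 6.36 and 8.70 at rev. All rev libraries were above all 4h libraries, and the 2 of clone 4 were the highest of the 16. Ndrg1 rose by 1.15 ± 0.22 from 4h to rev (edgeR adjusted p = 0.00241), the largest called rise of a member in a comparison over both clones, and was not called against 0h. Kdm3a, a histone H3 lysine 9 demethylase, moved up and down within 134 to 224 CPM: it rose by 0.34 ± 0.10 at 2h (edgeR adjusted p = 0.0243), fell by 0.32 ± 0.10 from 2h to 4h (0.0405), and rose by 0.37 ± 0.10 from 4h to rev (0.0255), ending 0.38 ± 0.10 above 0h (0.0192). Each Kdm3a call was lost on leaving out some single libraries (edgeR adjusted p 0.0514 to 0.143). These were any 0h or 2h library but 0h clone4_2 and 2h clone4_1 for the rise at 2h, any 1 of 9 libraries for the fall from 2h to 4h, any of the 4 clone 4 libraries at 4h and rev for the rise from 4h to rev, and 0h clone4_1, 0h clone8_1, rev clone4_1 or rev clone4_2 for rev against 0h.

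Hif1a itself had 57.1, 58.4, 74.8 and 65.2 CPM at 0h, 65.4, 88.3, 90.3 and 92.7 at 2h, 59.6, 59.9, 74.1 and 81.8 at 4h, and 62.8, 68.5, 82.1 and 72.9 at rev. At 2h 3 of the 4 libraries stood above all 0h libraries, and clone4_1 lay within the 0h range. Hif1a rose by 0.40 ± 0.09 at 2h (edgeR adjusted p = 0.00516) and fell by 0.29 ± 0.09 from 2h to 4h (0.0379), and its change at 4h against 0h was not called. The fall from 2h to 4h was not called without 2h clone4_2, 2h clone8_1, 2h clone8_2, 4h clone4_1, 4h clone4_2 or 4h clone8_1 (adjusted p 0.0579 to 0.144). The prolyl hydroxylase genes Egln1 and Egln3 and the mitochondrial gene Higd1a were called in none of the 6 comparisons. Egln3 was close to the floor, at 0.606 to 2.54 CPM.

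**Figure D2:**
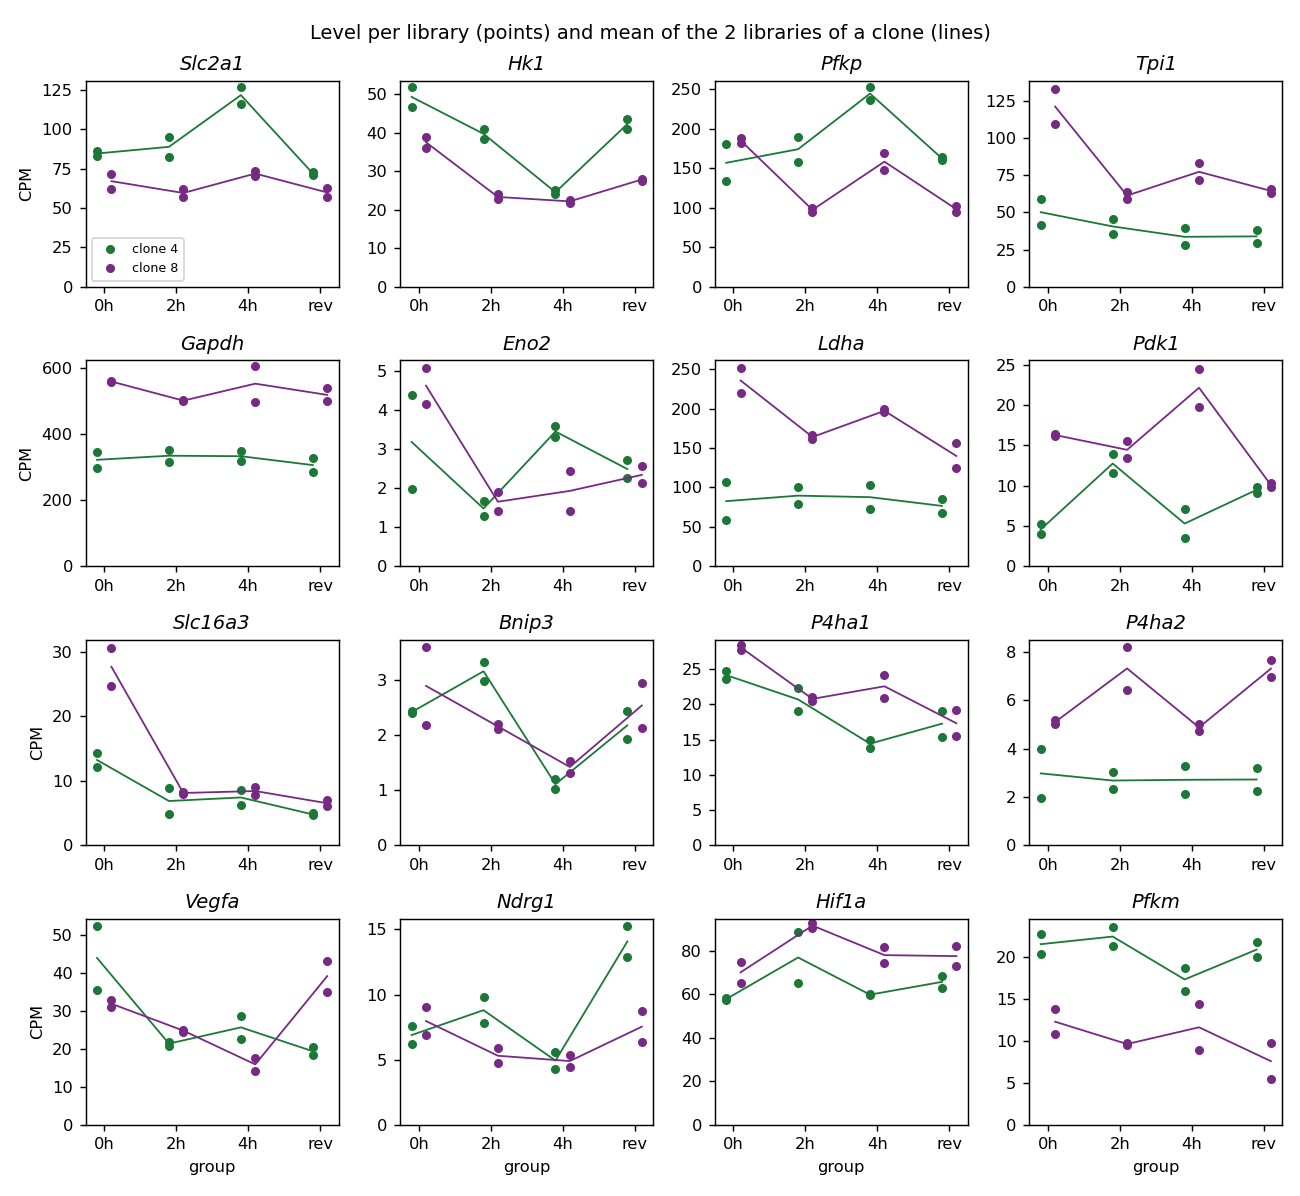
CPM of 16 genes (panels, each axis from 0) in the 4 groups, with 1 point per library, green for clone 4 and purple for clone 8, and a line through the mean of the 2 libraries of a clone. All Slc16a3 points at 0h lie above the rest, the Hk1 points at 4h lie below all those at 0h and rev, and the Gapdh, Ldha, Tpi1 and Pfkm points separate by clone.

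The clones differed in level. With the group in the model, 14 members were higher and 6 lower in clone 8 than in clone 4 by edgeR, where 34.9% of all genes were called (17.1% higher and 17.8% lower). The 6 largest differences were those of P4ha2 (1.19 ± 0.16 higher in clone 8, log2, edgeR adjusted p = 9.14e-06), Ldha (1.11 ± 0.12, 4.71e-07), Tpi1 (1.00 ± 0.11, 4.55e-07), Pfkm (0.99 lower, SE 0.13, 4.08e-06), Pdk1 (0.95 ± 0.23, 0.00329) and Gapdh (0.72 ± 0.06, 2.34e-08). P4ha2 had 4.00, 1.97, 5.19 and 5.03 CPM at 0h, 2.33, 3.04, 8.21 and 6.45 at 2h, 2.13, 3.30, 5.03 and 4.75 at 4h, and 2.26, 3.20, 6.96 and 7.68 at rev. Pfkm had 22.8, 20.3, 10.8 and 13.8 CPM at 0h, 21.3, 23.6, 9.72 and 9.53 at 2h, 18.7, 16, 14.4 and 8.88 at 4h, and 21.8, 19.98, 5.45 and 9.72 at rev. For P4ha2, Ldha, Tpi1, Gapdh and Pgam1 every clone 8 library was above every clone 4 library, and for Pfkm every one was below. How large a share of all genes separates the clones in this way was not computed, so these members cannot be set against a background. Of the 20 calls, those of Gpi1 and Eno1, the smallest, were lost without any 1 of 10 and 8 libraries from both clones (adjusted p 0.0502 to 0.0961), and the other 18 held without each library. Relative to library totals 8 of the 20 were called, 7 higher and 1 lower in clone 8, where 17.2% of all genes were called. Because each clone is 1 line, a property of the clone and a chance difference between lines cannot be told apart.

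Tpi1, Gapdh and Slc2a3, all higher in clone 8, lie on chromosome 6 together with Eno2, Hk2, Ldhb and Kdm3a. Ldhb was lower in clone 8 and the others were not called. On chromosome 6 as a whole, 34.8% of 624 tested genes were higher in clone 8 (median log2 difference 0.16), against 16.2% of the 12118 genes elsewhere, and from 120 to 130 Mb, where Slc2a3, Eno2, Tpi1 and Gapdh lie, 51 of 91 were (median 0.45). The part of this region in the differences of Tpi1, Gapdh and Slc2a3 was not tested. Of the 26 members on other chromosomes, 11 were higher in clone 8 and 5 lower.

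**Figure D3:**
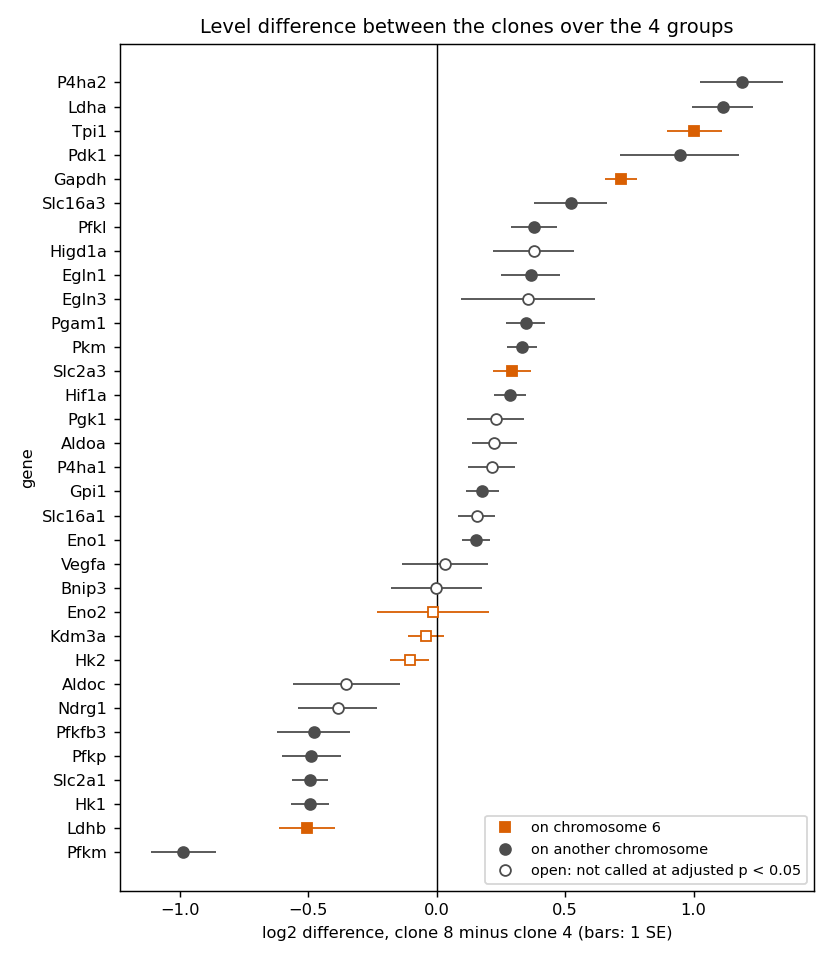
Log2 difference of the level, clone 8 minus clone 4, with bars of 1 SE, for the 33 tested genes in order of size. Squares mark the 7 genes on chromosome 6, filled symbols an edgeR adjusted p under 0.05, and P4ha2, Ldha, Tpi1, Pdk1 and Gapdh stand at the upper end and Pfkm at the lower.

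The clones also differed in their changes. With each clone in each group as a term of its own (8 terms), edgeR called a difference between the clones in the change at 2h for 9 members, 27.3% against 7.94% of all genes, and 8 of the 9 fell further, or rose less, in clone 8, a direction in which 5.01% of all genes were called. In clone 8 15 members fell and 2 rose at 2h in this model, where 8.13% of all genes were called lower and 7.65% higher. These were Slc2a3, Hk1, Gpi1, Pfkl, Pfkp, Aldoa, Aldoc, Tpi1, Pgk1, Eno2, Ldha, Ldhb, Slc16a3, P4ha1 and Ndrg1, while Slc2a1, Hk2, Gapdh, Pgam1, Eno1 and Pkm were not among them. In clone 4, 5 fell and 2 rose at 2h (the falls were those of Hk1, Pgam1, Slc16a3, Vegfa and Higd1a), with 9.95% of all genes called lower there and 13.7% higher, and Hk1 and Slc16a3 were called in both clones. The change of Pfkp was -0.93 in clone 8 against 0.16 in clone 4 (a difference of -1.08 ± 0.16, edgeR adjusted p = 5.14e-05). Ldhb changed by -0.71 and -0.08 (difference -0.64 ± 0.14, 0.00423), and Pgk1, which encodes the first ATP-making enzyme of the pathway, by -0.53 and 0.18 (difference -0.71 ± 0.19, 0.0138). In clone 4 Pdk1 rose by 1.5, both 2h libraries being above both 0h libraries, and its change in clone 8 was -0.17 (difference -1.68 ± 0.29, 2.74e-04). Vegfa was the exception, at -0.37 in clone 8 against -1.02 in clone 4 (a difference of 0.66 ± 0.21, 0.0444).

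Gpi1, Aldoa, Aldoc and Tpi1 were the other members with a called difference at 2h, and all 4 changed less in clone 4. Relative to library totals the median difference over the 33 members was 0.21 instead of -0.37, with the median over all genes at 0.56. Only Vegfa was called there, where 3.74% of all genes were, and Gpi1 had the other sign (0.12). Of the 9, the calls of Pfkp and Pdk1 were kept without each library. Without 0h clone4_2, 3 were called instead of 9. Ldhb was lost without 0h clone4_2 (edgeR adjusted p = 0.0617), Pgk1 without 0h clone4_2, 0h clone8_2, 2h clone4_1 or 2h clone8_2 (0.0548 to 0.11), Aldoa, Aldoc and Tpi1 without any 1 of 5 or 6 of the 8 libraries at 0h and 2h (0.0541 to 0.305), Vegfa without any 1 of 8 libraries (0.0533 to 0.287), and Gpi1 without any 1 of 11 (0.0505 to 0.23). DESeq2 called 4 of these 9 members, and 4.67% of all genes.

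At 4h against 0h edgeR called a clone difference for Pfkp and Higd1a, 2 members against a background of 5.72% of all genes. Pfkp rose by 0.65 in clone 4, against a change of -0.22 in clone 8 (a difference of -0.87 ± 0.16, edgeR adjusted p = 5.83e-04). Higd1a, a mitochondrial protein, fell by 1.13 in clone 4, against a change of 0.07 in clone 8 (a difference of 1.20 ± 0.36, edgeR adjusted p = 0.0443), at 3.05 to 9.79 CPM, and this call was lost without any 1 of 8 libraries (adjusted p 0.0503 to 0.234). Hk2, Pfkfb3 and Slc2a1 rose in clone 4 at 4h (by 0.50, 1.14 and 0.53), where 11% of all genes were called higher, and for them the difference from clone 8 was not called. Pfkfb3 had 4.20 and 5.0 CPM at 0h in clone 4 and 11.6 and 8.13 at 4h, against 4.98 and 4.60 and then 5.33 and 4.75 in clone 8.

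From 4h to rev, edgeR called a clone difference for 8 members, 24.2% where 13.2% of all genes were called. Vegfa rose by 1.25 in clone 8, against a change of -0.38 in clone 4 (a difference of 1.62 ± 0.23, edgeR adjusted p = 7.74e-06). Pdk1 rose by 0.98 in clone 4 and fell by 1.13 in clone 8 (difference -2.11 ± 0.31, adjusted p = 1.31e-05), and Ldhb rose by 0.46 and fell by 0.51 (difference -0.97 ± 0.15, 3.22e-05). These 3 calls were kept without each library, and that of Vegfa was lost relative to library totals (edgeR adjusted p = 0.0738). Egln1, which encodes the main prolyl hydroxylase of HIF, rose by 0.80 in clone 4, against a change of -0.18 in clone 8 (a difference of -0.98 ± 0.25, edgeR adjusted p = 0.00849), a call lost without 4h clone4_1 or rev clone8_2 (0.106 and 0.149). The other differences were those of Slc2a1, Hk2, Aldoc and Pgk1, each lost without some of the 8 libraries at 4h and rev (adjusted p up to 0.311), and without 4h clone4_1 the count was 3. Relative to library totals 12 members were called, all 12 lower in clone 8, where TMM scaling gave 3 higher and 5 lower, and Slc2a1 (-0.19) and Hk2 (-0.15) had the other sign and were not called. That scaling called 14.9% of all genes and moved the median difference over all genes from -0.0159 to -0.667. Over the members the median moved from -0.185 to -0.86.

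Within clone 4, 8 members were called lower from 2h to 4h and higher from 4h to rev: Slc2a3, Hk1, Pgk1, Ldhb, Pdk1, Egln1, Ndrg1 and Kdm3a. Slc2a1, Hk2 and Pfkp were called in the reverse order. In clone 8 Vegfa was the one member with the first pattern, and Pfkp, Ldhb and Pdk1 had the second, so that Pfkp followed one pattern in both clones while Ldhb and Pdk1 took opposite ones. In clone 4, 29.2% of all genes were called from 2h to 4h and 26.4% from 4h to rev, and in clone 8 7.95% and 5.75%. Those shares are for each comparison alone, with higher and lower calls pooled. The share of all genes with both calls of a pattern was not computed, so the patterns cannot be set against a background. Both changes of a pattern use the 4h libraries, so they are not independent.

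**Figure D4:**
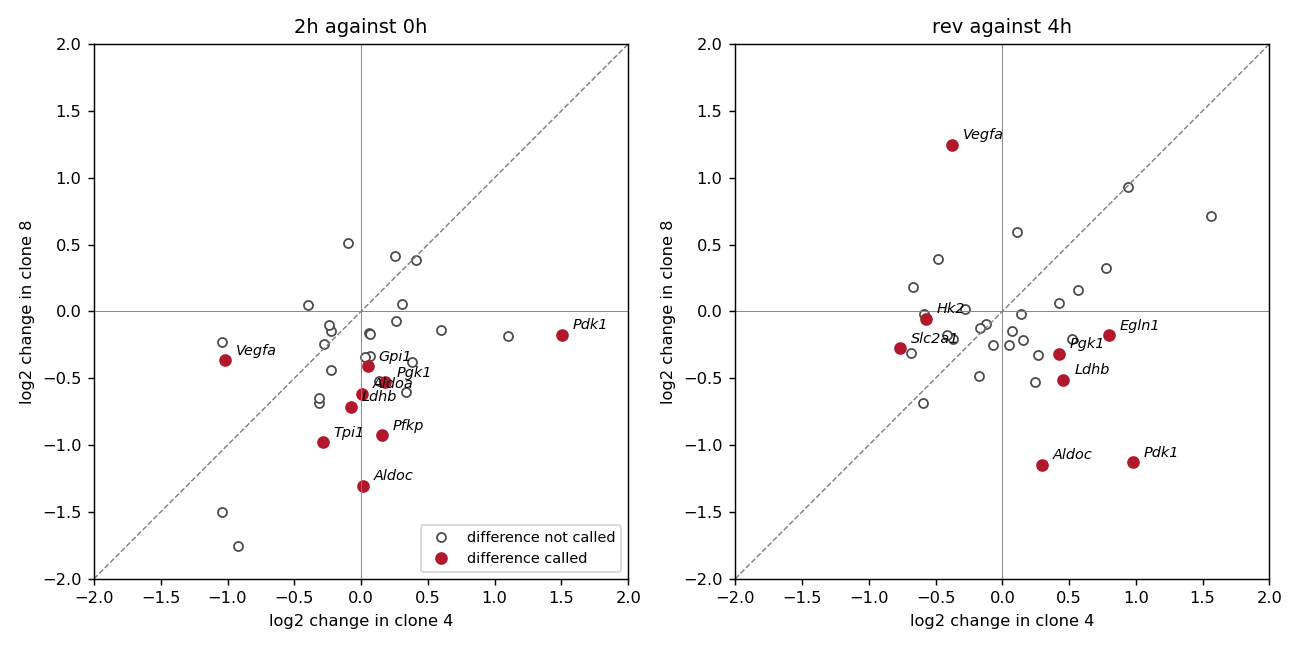
Log2 change in clone 4 (horizontal) against that in clone 8 (vertical) for the 33 tested genes, at 2h against 0h (left) and rev against 4h (right), with the dashed line where both are equal. Named red points have a called difference between the clones; at 2h all but Vegfa lie below the line, and at rev Vegfa lies far above it and Pdk1 far below.

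Other genes of these pathways were tested as well. None of the 16 tested genes of the tricarboxylic acid cycle was called in any of the 6 comparisons by edgeR or by DESeq2, with 0 to 2 at an unadjusted p under 0.05 in each, and their log2 changes lay between -0.28 and 0.19. By edgeR, 1.78% (rev against 2h) to 17% (2h against 0h) of all genes were called in these comparisons. The share called in any of the 6 was not computed. Of 12 genes of pyruvate dehydrogenase and its control, 2 were called at 2h (16.7% where 17% of all genes were) and 1 each from 2h to 4h, from 4h to rev and between rev and 2h. Pdha1 (0.30 ± 0.10) and Pdhx (0.41 ± 0.12), which encode subunits of the complex, rose at 2h (edgeR adjusted p = 0.049 and 0.0254). Of 10 further glycolysis genes 1 was called at 2h, where 17% of all genes were. This was the ADP-dependent glucokinase Adpgk, lower by 0.41 ± 0.11 (edgeR adjusted p = 0.0157). From 2h to 4h 1 of the 10 was called, where 12.1% of all genes were, and none was called in the other comparisons. Of 29 further HIF pathway and target genes, 2 rose and 4 fell at 2h, 20.7% where 17% of all genes were called. Ddit4, an inhibitor of mTORC1 that HIF and stress raise, fell by 0.91 ± 0.16 at 2h and by 1.07 ± 0.17 at 4h and rose by 0.69 ± 0.17 from 4h to rev (edgeR adjusted p = 8.54e-04, 3.33e-04 and 0.014). At 4h against 0h 4 of the 29 fell and none rose (4 were higher at an unadjusted p under 0.05, and DESeq2 also called 4 in all), 13.8% where 12.9% of all genes were called. From 4h to rev 4 of the 29 rose and 2 fell, 20.7% where 9.61% of all genes were called, and at rev against 0h 2 rose and 4 fell, 20.7% against 10.5%. Kdm4c, a histone demethylase gene, fell by 0.56 ± 0.08 from 4h to rev and ended 0.70 ± 0.08 lower than at 0h (edgeR adjusted p = 2.80e-04 and 4.86e-05). From 2h to 4h 3 of the 29 were called (10.3% against 12.1%), and between rev and 2h none by edgeR, with 4 at an unadjusted p under 0.05 and 1 by DESeq2.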

How the data were processed

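RNA from 16 libraries was depleted of ribosomal RNA with an NEBNext kit and made into libraries with an NEBNext Ultra II kit, per the labels' protocols. The deposited table holds the authors' raw read counts per gene ID, as whole numbers without normalization. bcl2fastq 2.19.1, STAR 2.5.3a and the build mm10 are named per the submitters' processing notes; the counting program, annotation and use of strand are not given in the sources used here. Gene names and places came from GENCODE M21 (GRCm38), and promoters from RefSeq (GRCm38.p6).

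Groups and clones came from the sample labels. Genes were kept by edgeR's filterByExpr (minimum count 10, minimum total 15), which left 12742 of 52636. Counts were scaled by TMM and tested with edgeR 4.0.16 (R 4.3.3) quasi-likelihood tests over all 16 libraries, with group and clone in the model, or with the 8 combinations of group and clone for differences between the clones. P-values were adjusted by Benjamini-Hochberg over all tested genes. The scripts were tested on simulated data. DESeq2 1.42.0, library totals, other filters, a stricter threshold, a replicate block, each clone alone and leaving out each library were tried as alternatives.

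The members and gene lists were chosen with earlier results of these data known. Values in every library are given for members called between groups with an absolute log2 change of at least 0.5, for Hif1a, Gapdh and Vegfa, and for the 6 largest clone differences in level. Slc2a1, which meets the first rule by its fall of 0.53 from 4h to rev, was added after its values were seen. Of each further list at most 4 called genes per comparison are named. Marker lists were also summed per library: naive pluripotency 853 to 2235 CPM, formative or primed 137 to 238, neural 36.5 to 65.9 and trophoblast 5.89 to 23.9. Counting error at 3 counts sets the floor, and it covers counting error only.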

Additional observations from a re-analysis of the deposited data

Results flagged for a closer look

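In 3 of the 132 sets of 4 libraries examined (33 genes in 4 groups), 1 library stood apart from the other 3 by Dixon's test; chance gives this in about 1 in 20 sets. Pfkp was at 133 CPM in 0h clone4_2 against 180 to 189 in the other 0h libraries. Ldhb was at 79.9 CPM in 4h clone4_1 against 87.4 to 88.9 in the others at 4h. Hif1a was at 65.4 CPM in 2h clone4_1 against 88.3 to 92.7 in the others at 2h.

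Changes that differed between the clones are given as the log2 change in clone 8 minus that in clone 4, each called by edgeR's test of the difference. At 2h against 0h the difference was -0.463 for Gpi1, -1.08 for Pfkp, -0.623 for Aldoa, -1.31 for Aldoc, -0.689 for Tpi1, -0.71 for Pgk1, -0.639 for Ldhb and -1.68 for Pdk1. Vegfa was the one gene on the other side, at 0.656. Among those not detailed above, the change of Gpi1 was 0.05 in clone 4 against -0.41 in clone 8 (edgeR adjusted p = 0.0467), Aldoa by 0.01 and -0.61 (0.0315), Aldoc by 0.01 and -1.30 (0.0222), and Tpi1 by -0.29 and -0.98 (0.0323). At 4h against 0h the difference was -0.869 for Pfkp and 1.20 for Higd1a. From 4h to rev it was 0.486 for Slc2a1, 0.516 for Hk2, -1.44 for Aldoc, -0.739 for Pgk1, -0.968 for Ldhb, -2.11 for Pdk1, -0.979 for Egln1 and 1.62 for Vegfa. Slc2a1 fell by 0.76 in clone 4, against a change of -0.28 in clone 8 (edgeR adjusted p = 0.0295), Hk2 fell by 0.57 and changed by -0.06 (0.0274), Aldoc changed by 0.30 and fell by 1.15 (0.0307), and Pgk1 rose by 0.42 and changed by -0.32 (0.0123).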

How the results depend on the processing

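The counts of members called were 9 (2h against 0h), 9 (4h against 0h), 7 (2h to 4h), 7 (4h to rev), 7 (rev against 0h) and 0 (rev against 2h), 20 for the clone difference in level, and 9, 2 and 8 for the clone difference in the changes at 2h, 4h and rev against 4h. In the same order, 17%, 12.9%, 12.1%, 9.61%, 10.5%, 1.78%, 34.9%, 7.94%, 5.72% and 13.2% of all genes were called. That background moved with the setting, and shares below are of all genes. Relative to library totals the counts of members were 2, 3, 0, 3, 4, 0, 8, 1, 0 and 12. The shares there were 3.5%, 3.99%, 3.02%, 4.16%, 3.52%, 1.23%, 17.2%, 3.74%, 1.2% and 14.9%. This scaling moved the median log2 change of all genes by up to 0.67, and it reversed Gpi1 at 2h (0.124), and Slc2a1 (-0.192) and Hk2 (-0.15) from 4h to rev. Without the clone in the model the first 6 counts were 2, 3, 0, 1, 1 and 0 (shares 5.94%, 4.29%, 2.09%, 1.97%, 2.14% and 0.322%). At an adjusted p under 0.01 the 10 counts were 6, 3, 1, 3, 3, 0, 16, 3, 1 and 4 (shares 7.23%, 5.45%, 3.59%, 3.88%, 3.53%, 0.557%, 23.5%, 3.26%, 3.07% and 6.69%). DESeq2 gave 9, 9, 8, 7, 8, 0, 20, 4, 1 and 7 (shares 16.3%, 13.2%, 12.3%, 9.77%, 10.5%, 2.56%, 33.2%, 4.67%, 3.85% and 8.16%). With no filter on low counts the members called were 13, 11, 9, 10, 13, 1, 23, 9, 2 and 9. The shares there were 7.18%, 5.87%, 6.3%, 5.35%, 4.65%, 1.51%, 15.2%, 2.96%, 2.23% and 5.55%. With a minimum count of 30 the counts were 8, 8, 6, 7, 8, 0, 20, 8, 2 and 8 (share 19.5% at 2h against 0h). Without the 9 features above 1% of counts they were 9, 9, 7, 7, 7, 0, 21, 9, 3 and 8 (17.5% at 2h against 0h). The first 6 were 5, 13, 16, 14, 9 and 1 in clone 4 alone (shares 20.7%, 19%, 27.1%, 24.6%, 16.8% and 3.31%). In clone 8 alone they were 18, 7, 6, 6, 14 and 1 (17.8%, 6.28%, 9.65%, 6.42%, 9.9% and 3.49%). Leaving out 1 library gave 6 to 11 at 2h, 5 to 10 at 4h, 1 to 7 from 2h to 4h, 3 to 8 from 4h to rev, 3 to 11 at rev against 0h, 19 to 22 for the level, and 3 to 9, 1 to 4 and 3 to 8 for the clone differences in change. Same-numbered libraries of a clone deviated together no more than others of the clone (mean r 0.375 against 0.384), so the numbers were not taken to pair them. With the replicate block the counts were 8, 8, 6, 7, 7, 0, 20, 8, 2 and 8 (share 14.4% at 2h against 0h), and 4 of 78 single calls were lost. Depth limits low members: Egln3 had 4 to 30 counts per library, Bnip3 4 to 30 and Eno2 7 to 49.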

Other observations

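Several genes of the pathway of the stress factor ATF4 fell after induction. Of 12 tested genes of this list, 5 fell and 1 rose at 2h, 50% where 17% of all genes were called, and 6 fell at rev against 0h, 50% where 10.5% were called. Chac1, which encodes an enzyme that degrades glutathione, had 14.8, 9.40, 10.7 and 9.34 CPM at 0h and 1.17, 2.90, 2.81 and 3.93 at 2h, so that the groups did not overlap. Chac1 fell by 2.03 ± 0.37 (edgeR adjusted p = 0.00122), and Trib3, a pseudokinase gene, by 1.51 ± 0.23 (2.63e-04). Nupr1, a stress-induced transcription regulator, fell against 0h by 1.25 ± 0.23 at 2h and by 1.76 ± 0.26 at rev (edgeR adjusted p = 0.00151 and 3.84e-04). Some HIF targets, Vegfa and Ddit4 among them, are also known targets of ATF4, and its part in their changes was not tested.

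Myc, which encodes a factor known to raise glycolytic genes, had 0.575 to 2.28 CPM at 0h, 13.2 to 39.3 at 2h, 16.7 to 37.8 at 4h and 1.28 to 4.37 at rev. Myc rose by 3.97 ± 0.48 at 2h and by 4.08 ± 0.49 at 4h against 0h and fell by 3.20 ± 0.43 from 4h to rev (edgeR adjusted p = 2.52e-05, 1.86e-05 and 1.08e-04). Mycn and Max, listed with it, were not called in these comparisons. The 3 genes summed to 90.2 to 101 CPM at 0h and 124 to 140 at 2h, so Myc was a small part of the sum. Stc2, a secreted glycoprotein gene among the further HIF targets, fell by 1.43 ± 0.31 at 2h and rose by 1.13 ± 0.32 from 2h to 4h (edgeR adjusted p = 0.00381 and 0.0254). Ak4, a mitochondrial adenylate kinase gene, rose by 0.60 ± 0.14 at 2h, fell by 0.73 ± 0.14 from 2h to 4h and rose by 0.73 ± 0.14 from 4h to rev (edgeR adjusted p = 0.00625, 0.00279 and 0.00268). Of 7 genes of the pentose phosphate pathway 1 was called at 2h and at 4h against 0h, where 17% and 12.9% of all genes were. This was the epimerase gene Rpe, which rose by 0.40 ± 0.12 at 2h and by 0.59 ± 0.13 at 4h (edgeR adjusted p = 0.0333 and 0.00454). From 4h to rev 1 of the 7 was also called, where 9.61% of all genes were.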
